A study of Rattus norvegicus with 18 samples.

Results

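Chemokine ligands are small secreted proteins that direct the movement of cells. They were taken here as the protein-coding genes of the count table whose symbol begins with Ccl, Cxcl, Cx3cl or Xcl and a number, which excludes their receptors. This gave 34 of 25678 genes, and 28 of them had at least 36 reads over the 18 libraries and are described below. The other 6 are named with their reads further on. The tissue was the dorsal root ganglion of the rat, the ganglion that holds the cell bodies of sensory neurons with their glia, vessels and resident immune cells. Messenger RNA was sequenced in 6 groups of 3 libraries. The NPP_herb group had disease state NPP and treatment herb in the labels, NPP_solvent had NPP and solvent, Sham_herb had Sham and herb, Sham_solvent had Sham and solvent, Ctrl_solvent had Ctrl and solvent, and Ctrl had Ctrl in both fields. The submitters write of neuropathic pain in a rat model and of a decoction with 12 ingredients, Shentong Zhuyu, while NPP and herb are not spelled out further. The sources used here give neither strain, sex and age nor the making of the model, the dose, the route or the sampling time. Nothing says whether each library is from its own animal, so a p-value here reflects variation among samples that could be technical.

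Chemokines bind receptors of the G protein-coupled type on leukocytes, and also on neurons and glia. The inflammatory ligands are switched on by cytokines, interferons or tissue damage and recruit monocytes, T cells or neutrophils. The homeostatic ligands are made steadily and place cells within tissues. In the dorsal root ganglion, chemokines are best known for the monocytes and macrophages that gather around injured sensory neurons, and for direct effects of ligands such as Ccl2 on the firing of those neurons.

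Cxcl9, Cxcl10, Cxcl11 and Cxcl13 lie on chromosome 14 and spread widely between libraries. Their promoters are shown because of their levels across libraries, where Cxcl9, Cxcl10 and Cxcl11 correlated with each other. No correlation of Cxcl13 with them is given here. Each line gives the 250 bases before the transcription start, 5′ to 3′ on the gene's strand, from RefSeq on build GRCr8. Capitals mark matches, on either strand, to GAAA, any 2 bases and GAAA (the core of the interferon-stimulated response element, ISRE) and to GGGA, any 4 bases and CC (a loose form of the kappaB element bound by NF-kappaB).
Cxcl9 (chr14:16006916-16007165, plus strand): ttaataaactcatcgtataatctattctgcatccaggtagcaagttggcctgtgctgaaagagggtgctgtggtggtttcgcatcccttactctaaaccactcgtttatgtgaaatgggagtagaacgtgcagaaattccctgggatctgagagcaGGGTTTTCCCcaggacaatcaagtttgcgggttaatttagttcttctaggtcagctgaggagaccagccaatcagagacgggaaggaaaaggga
Cxcl10 (chr14:15988816-15989065, plus strand): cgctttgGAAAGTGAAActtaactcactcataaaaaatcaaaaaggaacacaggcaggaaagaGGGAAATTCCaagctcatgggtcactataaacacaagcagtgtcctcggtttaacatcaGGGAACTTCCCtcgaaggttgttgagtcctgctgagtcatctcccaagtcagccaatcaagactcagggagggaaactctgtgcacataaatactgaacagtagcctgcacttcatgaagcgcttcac
Cxcl11 (chr14:15973478-15973727, plus strand): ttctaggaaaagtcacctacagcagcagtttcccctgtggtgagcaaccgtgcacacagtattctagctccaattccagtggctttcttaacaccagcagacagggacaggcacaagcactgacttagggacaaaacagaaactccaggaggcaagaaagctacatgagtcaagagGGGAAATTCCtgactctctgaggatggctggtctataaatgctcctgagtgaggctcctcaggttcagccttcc
Cxcl13 (chr14:13917921-13918170, minus strand): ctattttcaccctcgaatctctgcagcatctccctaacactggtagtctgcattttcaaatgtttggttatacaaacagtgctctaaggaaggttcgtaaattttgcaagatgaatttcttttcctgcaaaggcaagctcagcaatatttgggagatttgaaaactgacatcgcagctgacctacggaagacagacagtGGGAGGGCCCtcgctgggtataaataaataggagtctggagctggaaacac
The ISRE-type letters are in the Cxcl10 window and in 2 of the 28 ligand promoters that could be matched, Cxcl10 and Ccl19, against 3.41% of 33469 promoters of the same length. The kappaB-type letters are in all of these 4 windows and in 14 of the 28, against 16.4% of promoters. The 4 were chosen with their levels known, and Cxcl16, whose levels went with those of Cxcl13, has 0 kappaB-type matches. Cxcl10 holds 3 kappaB-type matches, and the last 2 overlap. Another pattern, TTCNNNGAA (the interferon-gamma activated site, GAS), is in 3 of the 28, against 7.67% of promoters. Cxcl11 is among these 3, and its match lies at the first bases of the window shown and is not in capitals. A match is a description of the letters and not a shown binding site.

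Depth ran from 18170925 to 50289652 counted reads per library. Per 1e6 counted reads, the 34 ligands took 661 and 670.3 in Ctrl_solvent replicates 1 and 3, and 88.99 to 163 in the other 16 libraries. Ctrl_solvent replicate 2 was among those 16. Ctrl_solvent replicates 1 and 3 both lay above the other 16 libraries in 18 of the 28 described ligands (64.3%). This was so for 5.43% of the 19037 genes with at least 36 reads, and for 0 of the 6 ligands below that. The 2 libraries were set apart with their ligand reads known, so the ligand share is not independent of that choice. Of the 28 described ligands, 12 had their highest value in Ctrl_solvent replicate 1 and 8 in replicate 3. These libraries stand apart from their own group, so values are given per library, and results that rest on them are given with and without them. Y-linked Eif2s3y, a marker of male tissue, had 1 and 0 reads in Ctrl replicates 2 and 3 and between 2180 and 6568 in the other 16 libraries. Ctrl replicates 2 and 3 thus differ in Y-linked reads from Ctrl replicate 1 and from the other groups. Of the labelled tissue's defining cells, sensory neurons were present in every library, and their 9 marker genes summed to 14536 to 21032 CPM (reads scaled to library size) in the 18 libraries.

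**Figure D1:**
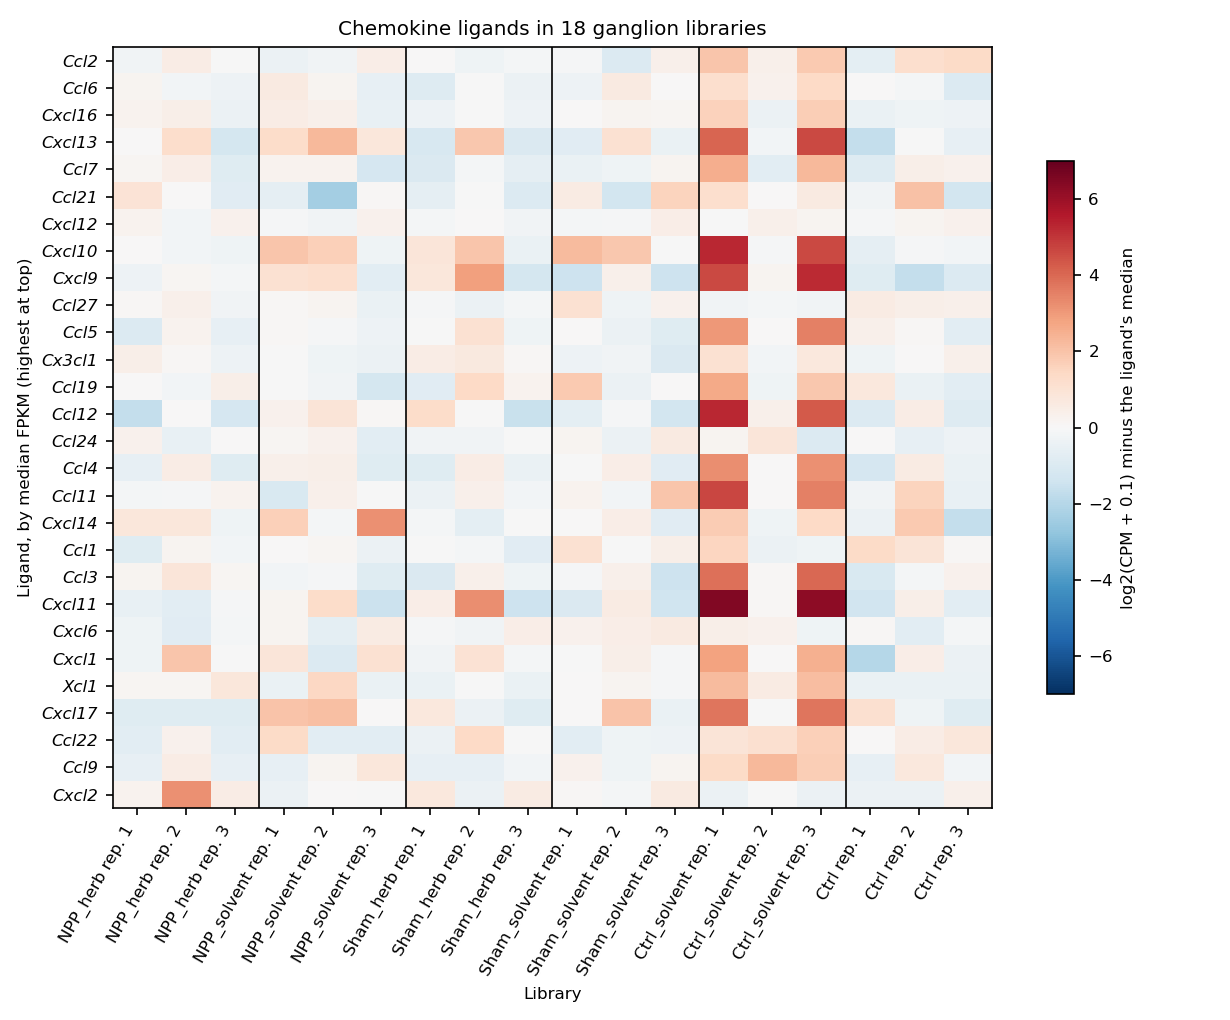
Levels of the 28 described ligands (rows, ordered by median FPKM) in the 18 libraries (columns, 3 per group). Colour is log2(CPM + 0.1) minus the ligand's median over the libraries, red above and blue below it. Ctrl_solvent replicates 1 and 3 are red in most rows, and Ctrl_solvent replicate 2 is not.

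Scaled to gene length (FPKM, from the authors' table), Ccl2 had the highest median over the libraries at 19.6 FPKM. It was followed by Ccl6 at 11.1 FPKM and Cxcl16 at 10.8 FPKM, while Cxcl13 was at 5.06 and Ccl7 at 4.02 FPKM. Ccl21 (3.95 FPKM), Cxcl12 (3.84 FPKM), Cxcl10 (3.40 FPKM), Cxcl9 (3.28 FPKM) and Ccl27 (3.18 FPKM) formed a middle group, and Ccl5, Cx3cl1 and Ccl19 had medians of 1.92, 1.21 and 1.04 FPKM. The other described ligands had medians under that of Ccl19. The ranges overlap widely. Cxcl9, Cxcl10 and Cxcl13 reached 134.5, 134.4 and 129.1 FPKM in single libraries, above the 77.2 FPKM that Ccl2 reached at most.

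The ligands of the receptor Cxcr3, which activated T cells and NK cells carry, are Cxcl9, Cxcl10 and Cxcl11, and interferons induce them. Cxcl10 had 4.35, 3.79 and 3.42 CPM in NPP_herb replicates 1, 2 and 3, 16.6, 13.8 and 3.48 in NPP_solvent, 7.75, 17.0 and 3.11 in Sham_herb and 20.4, 15.8 and 4.22 in Sham_solvent. In Ctrl_solvent it had 168, 4.03 and 109.8 CPM, and in Ctrl 2.73, 3.98 and 3.72. Outside Ctrl_solvent, 6 libraries lay at 7.75 CPM or more, none of them in NPP_herb or Ctrl, and the rest lay between 2.73 and 4.35 CPM. Cxcl9 had 1.56, 2.23 and 1.86 CPM in NPP_herb, 4.34, 4.75 and 1.17 in NPP_solvent, 3.56, 15.3 and 0.818 in Sham_herb and 0.691, 2.67 and 0.675 in Sham_solvent. Its values were 51.7, 2.33 and 80.2 CPM in Ctrl_solvent and 1.11, 0.582 and 0.9795 in Ctrl. Sham_herb replicate 2 was the highest library for Cxcl9 after Ctrl_solvent replicates 1 and 3. Cxcl11, the scarcest of the 3, had 0.215, 0.167 and 0.314 CPM in NPP_herb, 0.411, 0.971 and 0.0544 in NPP_solvent, 0.5203, 4.14 and 0.0654 in Sham_herb and 0.122, 0.5697 and 0.0675 in Sham_solvent. It reached 40.2, 0.379 and 34.6 CPM in Ctrl_solvent, against 0.0737, 0.485 and 0.163 in Ctrl. Sham_herb replicate 2 again came next after Ctrl_solvent replicates 1 and 3. The span of Art3 overlaps Cxcl10 and Cxcl11 in the RefSeq gene table, and Art3 itself had 185, 169 and 179 CPM in Ctrl_solvent and 189, 148 and 131 in Ctrl.

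Cxcl13 attracts B cells through Cxcr5, and Cxcl16 is a membrane-anchored ligand of Cxcr6 that macrophages make. Cxcl13 had 6.503, 15.1 and 2.65 CPM in NPP_herb, 15.7, 30.6 and 10.8 in NPP_solvent, 2.83, 23.98 and 3.07 in Sham_herb and 3.58, 13.5 and 4.49 in Sham_solvent. It had 107, 5.47 and 157 CPM in Ctrl_solvent and 1.92, 6.11 and 4.21 in Ctrl. Cxcl13 differed widely between the libraries of each group. Cxcl16 had 25.2, 28.2 and 15.9 CPM in NPP_herb, 29.96, 26.98 and 14.6 in NPP_solvent, 16.7, 20.6 and 16.6 in Sham_herb and 21.5, 24.4 and 22.8 in Sham_solvent. In Ctrl_solvent it had 64.2, 16.02 and 68.6 CPM, against 15.4, 16.8 and 16.7 in Ctrl. Sham_herb lay below Sham_solvent for Cxcl16 without overlap, as for 6.06% of all genes. The gene Zmynd15, whose span overlaps Cxcl16, had no more than 1.31 CPM in any library.

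The ligands of Ccr2, the receptor of inflammatory monocytes, are Ccl2, Ccl7 and, in the mouse, Ccl12. Ccl2 had 14.2, 24.2 and 16.5 CPM in NPP_herb, 12.9, 14.5 and 23.4 in NPP_solvent, 17.4, 13.8 and 15.2 in Sham_herb and 16.1, 8.72 and 21.8 in Sham_solvent. It had 66.2, 21.4 and 60.8 CPM in Ctrl_solvent and 10.6, 39.2 and 43.3 in Ctrl. Ctrl replicates 2 and 3, the libraries nearly without Y-linked reads, came next after Ctrl_solvent replicates 1 and 3, and the part of this Y-linked difference in the Ccl2 values was not tested. Ccl7 had 3.87, 5.02 and 1.91 CPM in NPP_herb, 4.23, 4.301 and 1.52 in NPP_solvent, 1.73, 3.26 and 2.22 in Sham_herb and 2.56, 2.87 and 4.09 in Sham_solvent. Its values were 21.4, 2.08 and 17.8 CPM in Ctrl_solvent and 1.84, 4.802 and 4.47 in Ctrl. Outside Ctrl_solvent replicates 1 and 3 Ccl7 stayed at or under 5.02 CPM. Ccl12 had 0.0537, 0.3903 and 0.114 CPM in NPP_herb, 0.486, 0.798 and 0.408 in NPP_solvent, 1.098, 0.379 and 0.0654 in Sham_herb and 0.203, 0.354 and 0.101 in Sham_solvent. It reached 18.5, 0.514 and 9.36 CPM in Ctrl_solvent, against 0.147, 0.582 and 0.163 in Ctrl. NPP_solvent lay above both Sham_solvent and NPP_herb for Ccl12 without overlap, at 51 reads in 3 libraries against 26 and 12. The same held for 4.44% of all genes against Sham_solvent and 2.61% against NPP_herb, and both comparisons use the same NPP_solvent libraries.

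Ccl5, Ccl3 and Ccl4 are inflammatory ligands that attract leukocytes, and T cells and NK cells are known sources of Ccl5. Ccl5 had 0.591, 1.51 and 0.799 CPM in NPP_herb, 1.31, 1.18 and 0.951 in NPP_solvent, 1.21, 2.73 and 0.981 in Sham_herb and 1.30, 0.904 and 0.642 in Sham_solvent. In Ctrl_solvent it had 11.04, 1.299 and 15.4 CPM, against 1.66, 1.31 and 0.718 in Ctrl. No other library than Ctrl_solvent replicates 1 and 3 lay above 2.73 CPM. Ccl3 ranged from 0.0338 to 0.558 CPM in the other 16 libraries and was at 5.30 and 5.82 CPM in Ctrl_solvent replicates 1 and 3. Ccl4 was at 2.06 and 2.01 CPM in those 2, and at 0 to 0.243 CPM elsewhere. Ccl6, a rodent ligand made by macrophages that binds Ccr1 in the mouse, had 4.89, 3.68 and 3.37 CPM in NPP_herb, 6.66, 4.89 and 2.80 in NPP_solvent, 2.23, 4.29 and 3.24 in Sham_herb and 3.37, 6.62 and 4.29 in Sham_solvent. It had 9.74, 5.33 and 11.5 CPM in Ctrl_solvent and 4.38, 3.88 and 2.12 in Ctrl. The 3 Ctrl_solvent values for Ccl6 lay above the 3 Ctrl values, as for 8.45% of all genes. Ccl11, an eotaxin that attracts eosinophils through Ccr3, had 0.376, 0.3903 and 0.514 CPM in NPP_herb, 0.1496, 0.555 and 0.408 in NPP_solvent, 0.289, 0.569 and 0.3598 in Sham_herb and 0.528, 0.354 and 1.92 in Sham_solvent. It had 13.1, 0.433 and 5.95 CPM in Ctrl_solvent and 0.332, 1.41 and 0.261 in Ctrl. Ccl24, the second eotaxin, stayed between 0.437 and 1.76 CPM in the 18 libraries, with its highest value in Ctrl_solvent replicate 2 and its lowest in Ctrl_solvent replicate 3.

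**Figure D2:**
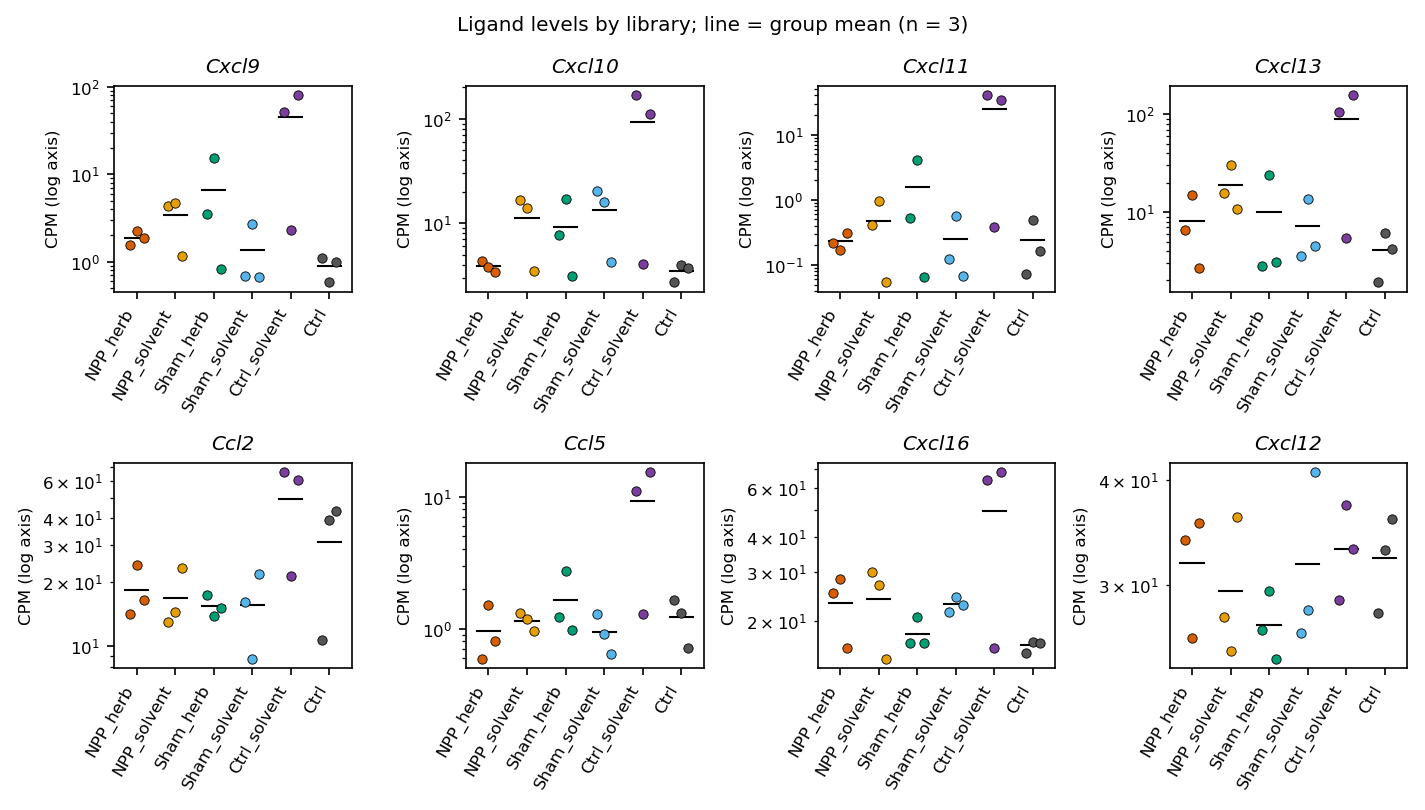
CPM of 8 ligands in each library (points, log axis) by group, with the group mean as a line (n = 3). Ctrl_solvent holds 2 high libraries and 1 at the level of the other groups for 7 of the ligands, while Cxcl12 lies between 24.5 and 40.9 CPM in all 18 libraries.

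Among the homeostatic ligands, Cxcl12 binds Cxcr4 and the scavenger receptor Ackr3. Cxcl12 had 33.97, 25.98 and 35.6 CPM in NPP_herb, 27.5, 25.04 and 36.1 in NPP_solvent, 26.6, 29.6 and 24.5 in Sham_herb and 26.3, 28.01 and 40.9 in Sham_solvent. It had 28.8, 37.4 and 33.2 CPM in Ctrl_solvent and 27.8, 33.03 and 36.01 in Ctrl. Its groups overlapped in the 6 comparisons of groups made here. Ccl21 and Ccl19 guide dendritic and T cells through Ccr7. Ccl21 had 7.42, 3.74 and 2.11 CPM in NPP_herb, 2.39, 0.624 and 3.94 in NPP_solvent, 2.34, 3.68 and 1.86 in Sham_herb and 5.49, 1.43 and 11.2 in Sham_solvent. Its values were 8.55, 3.82 and 5.86 CPM in Ctrl_solvent and 3.13, 15.8 and 1.44 in Ctrl. It was one of the described ligands that did not peak in Ctrl_solvent, with Ctrl replicate 2 highest. Ccl19 had 0.8599, 0.725 and 1.14 CPM in NPP_herb, 0.823, 0.694 and 0.299 in NPP_solvent, 0.434, 2.31 and 1.01 in Sham_herb and 3.25, 0.589 and 0.844 in Sham_solvent. It had 5.84, 0.649 and 3.32 CPM in Ctrl_solvent and 1.44, 0.582 and 0.457 in Ctrl. Sham_solvent replicate 1 lay close below Ctrl_solvent replicate 3 for Ccl19.

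Ccl27, a ligand of Ccr10 known from skin, had 8.55, 10.3 and 6.85 CPM in NPP_herb, 8.603, 9.19 and 5.87 in NPP_solvent, 7.83, 6.22 and 7.42 in Sham_herb and 17.3, 6.52 and 10.3 in Sham_solvent. It had 6.82, 7.41 and 6.78 CPM in Ctrl_solvent and 12.2, 11.1 and 10.4 in Ctrl. The Ctrl_solvent values of Ccl27 thus lay below the Ctrl values without overlap, as for 8.15% of all genes. In the RefSeq gene table the span of Ccl27 overlaps Il11ra1, a receptor subunit for interleukin 11. Il11ra1 had 28.8, 30.7 and 29.2 CPM in Sham_herb and 56.8, 28.6 and 42.7 in Sham_solvent, and Sham_solvent replicate 1 was the highest of the 18 libraries for Il11ra1 and for Ccl27. Whether reads were counted by strand is not given, so reads of these genes may not be separated. Cx3cl1 (fractalkine), which neurons carry on their membrane and whose receptor Cx3cr1 sits on macrophages, had 6.56, 5.24 and 3.796 CPM in NPP_herb, 4.68, 3.88 and 3.697 in NPP_solvent, 7.11, 7.78 and 5.13 in Sham_herb and 3.74, 4.03 and 2.33 in Sham_solvent. It had 10.2, 4.19 and 8.14 CPM in Ctrl_solvent and 3.94, 5.04 and 6.302 in Ctrl. Sham_herb lay above Sham_solvent without overlap, as for 8.52% of all genes. Cxcl14, a ligand made by epithelia and stroma, had 1.34, 1.34 and 0.571 CPM in NPP_herb, 2.51, 0.659 and 7.37 in NPP_solvent, 0.665, 0.417 and 0.7195 in Sham_herb and 0.732, 1.02 and 0.371 in Sham_solvent. It had 2.71, 0.568 and 2.10 CPM in Ctrl_solvent and 0.516, 2.86 and 0.163 in Ctrl. NPP_solvent replicate 3, the library with the highest summed fibroblast markers (2998 CPM, against 1114 to 2005 in the other libraries), held the highest Cxcl14. The part of fibroblast content in this value was not tested.

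The neutrophil-attracting ligands of Cxcr2 were scarce. Cxcl1 lay between 0 and 1.39 CPM outside Ctrl_solvent replicates 1 and 3, which had 2.65 and 2.06 CPM. Cxcl6 stayed between 0.279 and 0.912 CPM in the 18 libraries. Cxcl2 had 20 of its reads in NPP_herb replicate 2 (1.12 CPM) and at most 4 in any other library, and Cxcl3 had 34 reads in all. Cxcl17, a mucosal ligand, had 0, 0 and 0 reads in NPP_herb, 17, 20 and 3 in NPP_solvent, 7, 1 and 0 in Sham_herb and 2, 32 and 1 in Sham_solvent. It had 43, 3 and 54 reads in Ctrl_solvent and 8, 1 and 0 in Ctrl. Ccl1, the Ccr8 ligand, had 1 to 17 reads in every library, with the most reads in Ctrl replicate 1. Scaled to library size, Ctrl_solvent replicate 1 was highest for Ccl1 at 0.703 CPM, above Ctrl replicate 1 at 0.626 CPM. The Ccr4 ligand Ccl22 reached 10 reads in a library, the Xcr1 ligand Xcl1 reached 12, and Ccl9 reached 23 in Ctrl_solvent replicate 2. Below 36 reads in all were Cxcl3, the Ccr10 ligand Ccl28 (25 reads), the Ccr4 ligand Ccl17 (19), the Ccr9 ligand Ccl25 (15), the eotaxin Ccl26 (3) and the Ccr6 ligand Ccl20 (2).

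Of the 34 ligands, 23 passed the filter on low counts and were tested, the same number as pass without Ctrl_solvent. The 11 untested ones are the 6 below 36 reads with Ccl4, Ccl9, Ccl22, Cxcl2 and Xcl1. The quasi-likelihood test of edgeR called 0 of 17043 genes (0%) at a Benjamini-Hochberg adjusted p under 0.05, and so 0 ligands, in each of 7 comparisons and in the test for any difference among the 6 groups. The nearest comparison was Ctrl_solvent against Ctrl, where the smallest adjusted p was 0.05001 over all genes and 0.122 among the ligands. Unadjusted p are given below as a description. In bulk tissue, more cells of a type and more RNA per cell cannot be told apart.

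NPP_solvent against Sham_solvent bears on the pain model under solvent. Of 23 ligands, 12 were higher (51.3% of all genes) and 11 lower, with a median log2 fold change of 0.05 beside 0.01 over all genes. An unadjusted p under 0.05 was found for 1 higher ligand (2.66% of all genes) and 0 lower (3.02%), and DESeq2 called 0 genes. Cxcl14 had a log2 fold change of 2.29 ± 0.90 (edgeR, unadjusted p = 0.0218, adjusted p = 0.755). It rested on NPP_solvent replicate 3, without which it was 1.13. Ccl27 was next at -0.52 ± 0.26 (edgeR, unadjusted p = 0.0623) and was at -0.10 without Sham_solvent replicate 1. The overlapping Il11ra1 had -0.46 ± 0.20. Ccl12 alone had groups that did not overlap, with NPP_solvent higher, against 4.44% of all genes, and 0 were lower without overlap (3.67%). Ccl2, the ligand best known from injured ganglia, had 0.13 ± 0.51, and Cxcl10 had -0.26 ± 0.99.

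The herb treatment was tested in NPP and in Sham animals. For NPP_herb against NPP_solvent, 11 of 23 ligands were higher (47.7% of all genes) and 12 lower, with a median log2 fold change of -0.05 beside -0.01 over all genes. An unadjusted p under 0.05 was found for 0 higher ligands (0.909% of all genes) and 1 lower (0.962%), and DESeq2 called 1 gene (0.00587%) and 0 ligands. The lower ligand was Cxcl17, with 0 reads in NPP_herb and 40 in NPP_solvent (edgeR, unadjusted p = 0.0189, adjusted p = 1.00). With reads pooled over the 3 libraries of each group and a floor of 3 reads, the pooled level was at least 10.3-fold lower in NPP_herb. This bound covers the sampling of reads and not the spread between libraries. NPP_solvent replicate 3 itself had only 3 reads. Cxcl17 was also at 0 reads in Sham_herb replicate 3 and Ctrl replicate 3. Cxcl14 followed at -1.73 ± 0.89 (edgeR, unadjusted p = 0.0707), and was at -0.57 without NPP_solvent replicate 3. Groups did not overlap for Cxcl17 and Ccl12, lower in NPP_herb (2.61% of all genes), and for Ccl3, higher (2.69%). Cxcl10 had -1.55 ± 1.06 and Cxcl13 -1.27 ± 1.13, both with NPP_solvent values that reached down into the NPP_herb range. The 19 interferon-stimulated genes were all lower in NPP_herb, with a median log2 fold change of -2.01, and 0 passed the test. Their summed level was 613, 599.6 and 513 CPM in NPP_herb, against 2059.7, 2047 and 447 in NPP_solvent, so NPP_solvent replicate 3 lay below the 3 NPP_herb libraries. Their part in the Cxcl10 value was not tested. Other marker lists also moved in a single direction in this comparison. The 9 neutrophil, 6 red blood cell and 12 axon injury genes tested were all higher in NPP_herb. Their median log2 fold changes were 1.08, 2.27 and 0.30, and 0 of them passed the test. This comparison and the one before it share the NPP_solvent libraries.

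For Sham_herb against Sham_solvent, 8 of 23 ligands were higher (50.7% of all genes) and 15 lower, with a median log2 fold change of -0.30 beside 0.01 over all genes. An unadjusted p under 0.05 was found for 1 higher ligand (4.4% of all genes) and 1 lower (5.49%), and DESeq2 called 0 genes. Cx3cl1 had a log2 fold change of 0.98 ± 0.31 (edgeR, unadjusted p = 0.00492, adjusted p = 0.491), from 0.77 to 1.14 with each library left out. Its receptor Cx3cr1 had 0.954, 1.40 and 0.981 CPM in Sham_herb and 0.325, 0.511 and 0.270 in Sham_solvent, a log2 fold change of 1.54 ± 0.70 (edgeR, unadjusted p = 0.0409, adjusted p = 0.491). The other 13 genes of the macrophage list were lower in Sham_herb, and its summed level was 232 to 528 CPM in Sham_herb and 344 to 899 in Sham_solvent. Ccl27 had -0.66 ± 0.26 (edgeR, unadjusted p = 0.0224), which was -0.23 without Sham_solvent replicate 1, and Il11ra1 had -0.53 ± 0.20. Groups did not overlap for Cx3cl1, higher (8.52% of all genes), and for Cxcl16 and Ccl1, lower (6.06%). These shares are near those of all genes.

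For NPP_herb against Sham_herb, 13 of 23 ligands were higher (49.1% of all genes) and 10 lower (median log2 fold change 0.11 beside -0.00 over all genes). At an unadjusted p under 0.05 there were 0 ligands in either direction (0.81% of all genes higher and 0.587% lower), and DESeq2 called 2 genes (0.0117%) and 0 ligands. Groups did not overlap for 0 ligands in either direction (3.18% of all genes higher and 4.17% lower). Cxcl11 had -2.63 ± 1.69 (edgeR, unadjusted p = 0.145, adjusted p = 1.00). Cxcl9 had -1.79 ± 1.16 (edgeR, unadjusted p = 0.149, adjusted p = 1.00). Both rest on Sham_herb replicate 2, without which they were -0.28 and -0.22. The herb effect in NPP minus that in Sham was also tested. It was above zero for 13 of 23 ligands (47.7% of all genes), with 0 ligands at an unadjusted p under 0.05 in either direction (1.89% of all genes above and 1.51% below zero), while DESeq2 called 3 genes (0.0176%) and 0 ligands. Ccl27 had 0.77 ± 0.37 (edgeR, unadjusted p = 0.0527, adjusted p = 0.92) and was at 0.36 without Sham_solvent replicate 1. Cxcl9 had -3.04 ± 1.64 (edgeR, unadjusted p = 0.0881, adjusted p = 0.92) and was at -1.47 without Sham_herb replicate 2.

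**Figure D3:**
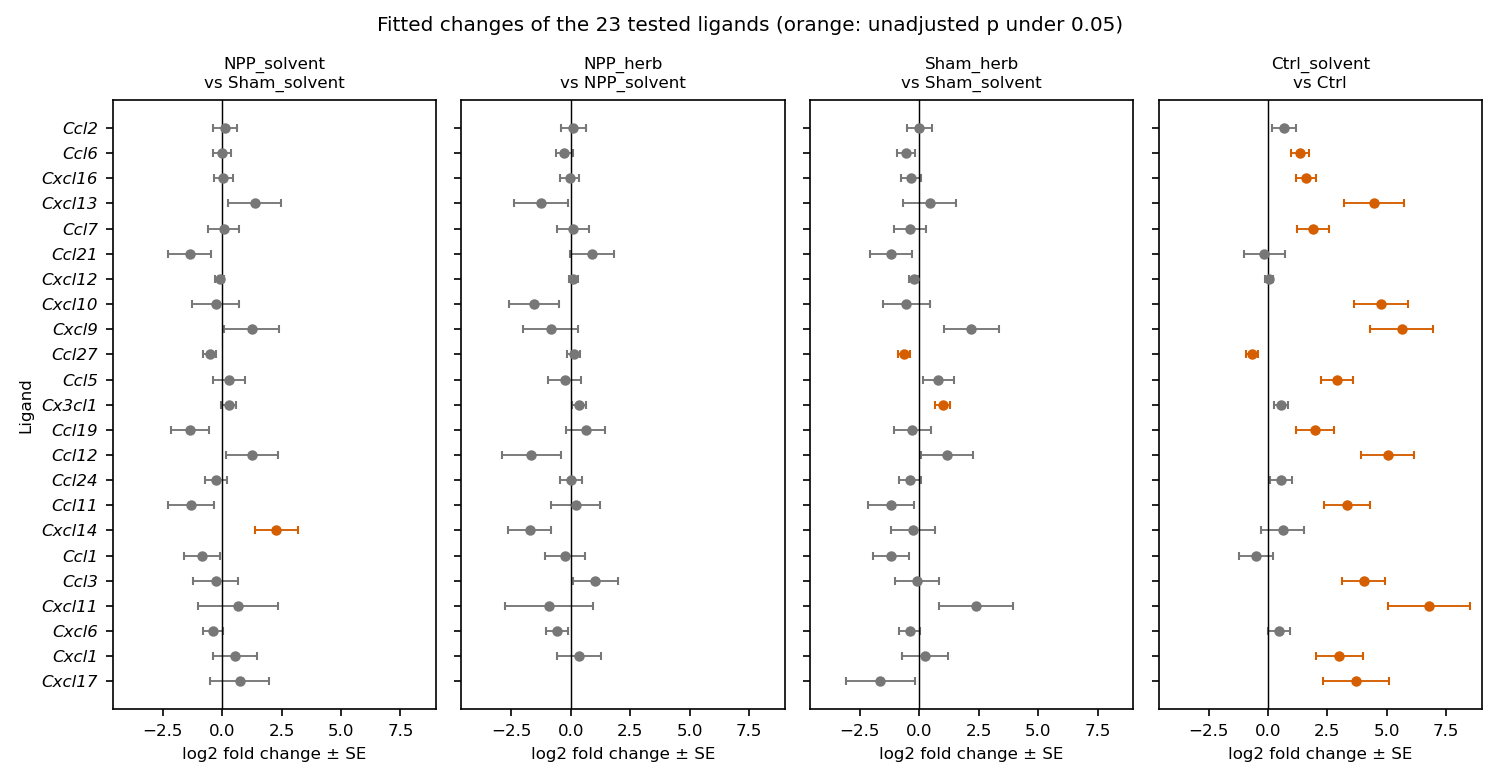
Log2 fold change ± SE from edgeR for the 23 tested ligands in 4 comparisons (n = 3 libraries per group), in orange where the unadjusted p was under 0.05. Cxcl17, at 0 reads in NPP_herb, is left out of the second panel. The first 3 panels hold 3 points in orange, and the last, Ctrl_solvent against Ctrl, has 15 in orange, 14 of them to the right.

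The comparison of Ctrl_solvent with Ctrl bears on the solvent where the disease state is Ctrl. Of 23 ligands, 20 were higher (51.1% of all genes) and 3 lower in Ctrl_solvent, with a median log2 fold change of 1.88 beside 0.01 over all genes. An unadjusted p under 0.05 was found for 14 higher ligands of 23 (8.33% of all genes) and 1 lower (4.68%). Among the Cxcr3 ligands, edgeR gave log2 fold changes of 6.77 ± 1.71 for Cxcl11, 5.62 ± 1.32 for Cxcl9 and 4.75 ± 1.15 for Cxcl10, with unadjusted p of 0.00172, 0.00101 and 0.00129. The Ccr2 ligands Ccl12 and Ccl7 had 5.04 ± 1.12 and 1.88 ± 0.66, with unadjusted p of 0.000424 and 0.0125 by edgeR. Ccl2 had 0.67 ± 0.51 (edgeR, unadjusted p = 0.212). Ccl3 (4.03 ± 0.90) and Ccl5 (2.91 ± 0.67) had p of 0.000337 and 0.000486. Cxcl13 (4.47 ± 1.26) and Cxcl16 (1.60 ± 0.41) had p of 0.00388 and 0.00158. Ccl11 (3.32 ± 0.95), Cxcl1 (3.004 ± 1.00) and Cxcl17 (3.71 ± 1.40) had p of 0.00313, 0.00795 and 0.0188. For Ccl19 (1.96 ± 0.80), Ccl6 (1.36 ± 0.38) and, lower, Ccl27 (-0.68 ± 0.26), p was 0.0261, 0.00216 and 0.02. Their adjusted p ran from 0.122 to 0.312. Groups did not overlap for Cxcl9, Cxcl10 and Ccl6, higher (8.45% of all genes), and for Ccl27, lower (8.15%).

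Most of these values came from Ctrl_solvent replicates 1 and 3. DESeq2 called 10 ligands in this comparison, beside 466 genes (2.74%), namely Cxcl9, Cxcl10, Cxcl11, Cxcl13, Cxcl16, Ccl3, Ccl5, Ccl6, Ccl11 and Ccl12. Without Ctrl_solvent replicate 2, edgeR called 14 of 25 tested ligands and 734 genes (4.22%), with a median log2 fold change of 2.46. Without Ctrl_solvent replicates 1 and 3 together, a setting chosen after seeing the data, it called 0 of 26 ligands and 0 genes (0%), and the median was 0.15. Cxcl10 was then at 0.21, Cxcl9 at 1.36 and Ccl5 at 0.081, while Cxcl16, Ccl7, Ccl11, Ccl19, Cxcl17, Ccl2, Cx3cl1 and Cxcl14 changed sign. Ccl2 was at -0.54, Cx3cl1 at -0.29 and Cxcl14 at -0.998. The part of the missing Y-linked reads of Ctrl replicates 2 and 3 in these values was not tested.

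Sham_solvent against Ctrl_solvent bears on Sham where both groups had solvent. Of 23 ligands, 3 were higher (48.4% of all genes) and 20 lower in Sham_solvent, with a median log2 fold change of -1.67 beside -0.01 over all genes. An unadjusted p under 0.05 was found for 14 lower ligands (4.47% of all genes) and 1 higher (1.65%), and the adjusted p of these 15 ran from 0.459 to 0.729. Fold changes by edgeR were -3.28 ± 0.68 for Ccl5, -5.31 ± 1.11 for Ccl12 and -4.02 ± 0.88 for Ccl3, with unadjusted p of 0.000175, 0.000255 and 0.000275. Cxcl9 (-4.96 ± 1.24), Cxcl10 (-2.80 ± 1.03) and Cxcl11 (-6.41 ± 1.62) had p of 0.00164, 0.0181 and 0.00174. Cx3cl1 (-1.15 ± 0.31) and Cxcl13 (-3.61 ± 1.19) had p of 0.0016 and 0.0101. Ccl2 (-1.67 ± 0.52), Ccl7 (-2.10 ± 0.66) and Ccl11 (-2.80 ± 0.91) had p of 0.00686, 0.00655 and 0.00744. Cxcl16 (-1.11 ± 0.40), Cxcl1 (-2.31 ± 0.92) and Ccl6 (-0.88 ± 0.37) had p of 0.0156, 0.0232 and 0.0279. Ccl27 was higher in Sham_solvent, at 0.69 ± 0.26 (edgeR, unadjusted p = 0.018). Groups did not overlap for Cx3cl1 and Ccl12, lower in Sham_solvent (4.12% of all genes), and for 0 higher (3.02%). DESeq2 called 5 ligands, Ccl3, Ccl5, Ccl12, Cxcl9 and Cxcl11, beside 35 genes (0.205%). Without Ctrl_solvent replicate 2 edgeR called 11 of 25 tested ligands and 252 genes (1.45%). Without replicates 1 and 3 together, the median log2 fold change of the 26 ligands then tested was 0.18. This comparison shares the Ctrl_solvent libraries with the one before it. Among the 6 groups as a whole, 15 ligands had an unadjusted p under 0.05, against 10.2% of all genes, and DESeq2 called 12 ligands beside 470 genes (2.81%).

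Markers of macrophages and of T and NK cells lay high in the same libraries. The summed level of 14 macrophage genes was 1366 and 1388 CPM in Ctrl_solvent replicates 1 and 3 and 204 to 899 in the other 16 libraries, and 10 of the 14 had both libraries on top. By group it ran from 331 to 449.7 CPM in NPP_herb, 275 to 845 in NPP_solvent, 232 to 528 in Sham_herb, 344 to 899 in Sham_solvent, 394 to 1388 in Ctrl_solvent and 204 to 455 in Ctrl. The 11 T and NK cell genes in the table summed to 75.7 and 82.7 CPM in those libraries and to 15.1 to 29.7 in the others, and 11 of the 11 had both libraries on top. By group they ran from 20.2 to 26.3 CPM in NPP_herb, 18.8 to 26.4 in NPP_solvent, 16.5 to 28.5 in Sham_herb, 20.7 to 22.998 in Sham_solvent, 29.7 to 82.7 in Ctrl_solvent and 15.1 to 26.05 in Ctrl. Cd3d and Cd3e, which encode CD3 subunits of the T cell receptor complex, were at 0 reads in several of the other libraries. Among them were NPP_solvent replicate 3 for Cd3d and NPP_herb replicate 1 for Cd3e. Interferon-stimulated genes, 19 in the list, summed to 3479.8 and 2776 CPM in Ctrl_solvent replicates 1 and 3, and 11 of the 19 had both on top. By group they ran from 513 to 613 CPM in NPP_herb, 447 to 2059.7 in NPP_solvent, 623 to 1165 in Sham_herb, 666 to 1959 in Sham_solvent, 489.6 to 3479.8 in Ctrl_solvent and 484 to 588 in Ctrl. The 5 B and plasma cell markers summed to 4.44 and 2.76 CPM in those libraries, within the 1.59 to 9.701 of the others, and 0 of the 5 had both on top. Neutrophil and red blood cell markers did not follow either, with red blood cell markers at 13.3 and 5.34 CPM in Ctrl_solvent replicates 1 and 3, below the 20.5 to 761 of the other libraries. The part of these cell types in the ligand values was not tested.

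Some ligand levels correlated with these lists across the 18 libraries, which differ in depth and include the 6 groups. Of 204 relations between 12 lists and 17 ligands with a mean of at least 1 CPM, 49 had an adjusted permutation p under 0.05 for Pearson's r and 16 for Spearman's rho, and 8 did for r without Ctrl_solvent replicates 1 and 3. The interferon-stimulated score, the mean log2 CPM of its genes, correlated with Cxcl10 at r = 0.90 (adjusted permutation p = 0.000816) and rho = 0.81 (adjusted permutation p = 0.00612). Without the 2 libraries farthest from the median score, Ctrl_solvent replicates 1 and 3, r was 0.84. The macrophage score correlated with Ccl6 at r = 0.93 (adjusted permutation p = 0.00068) and rho = 0.84 (adjusted permutation p = 0.0051), and r was 0.84 without the same libraries. For Cxcl13 the values were r = 0.90 and rho = 0.85 (adjusted permutation p = 0.00068 and 0.0051), with r = 0.76 without them. For Cxcl16 they were r = 0.89 and rho = 0.77 (adjusted permutation p = 0.00068 and 0.0127), with r = 0.71. The T and NK cell score and Ccl5 had r = 0.91 (adjusted permutation p = 0.00374) but rho = 0.34 (adjusted permutation p = 0.384), and r = 0.39 without the 2 libraries, so that relation rests on them. Raw permutation p were 2e-05 and 9e-05 for Cxcl10 and 1e-05 and 5e-05 for Ccl6, where 1e-05 is the smallest that 100000 permutations can give.

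**Figure D4:**
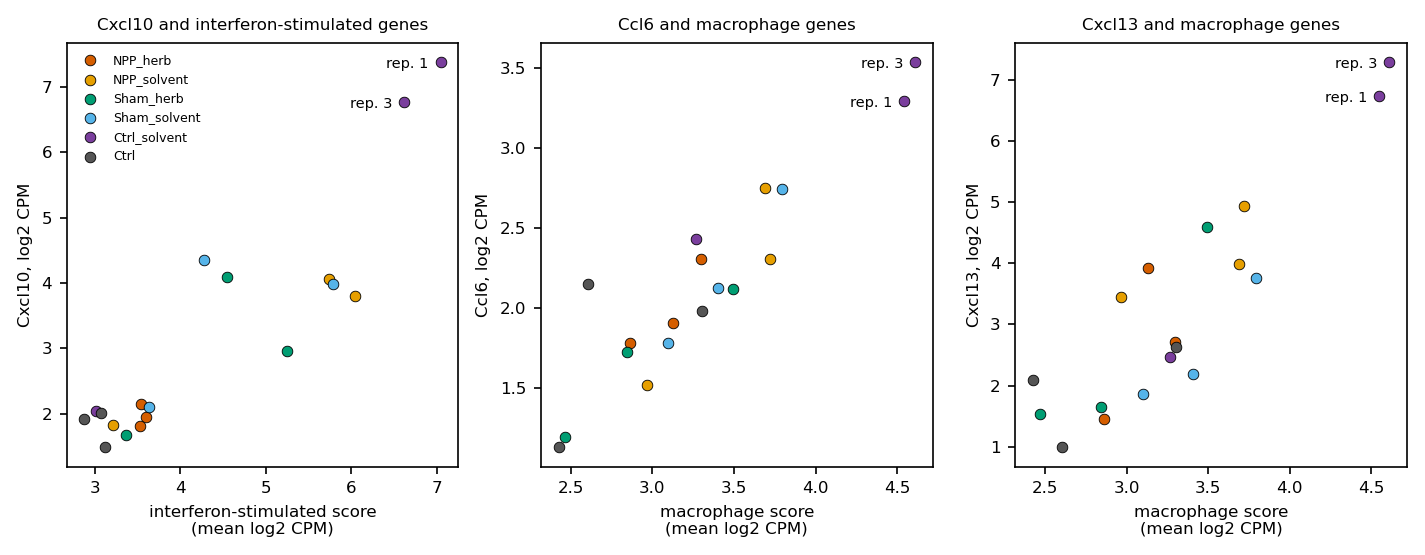
Log2 CPM of Cxcl10 against the interferon-stimulated score (left), and of Ccl6 and Cxcl13 against the macrophage score (middle and right), with 1 point per library in the colour of its group. Ctrl_solvent replicates 1 and 3 are labelled at the top right, and the other 16 libraries also rise from left to right, with r = 0.84, 0.84 and 0.76 among them.

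Between ligands, 65 of 136 pairs had an adjusted permutation p under 0.05 for r, and 9 for rho. Without the 2 farthest libraries 16 of the 65 kept an r of at least 0.5 in size and 10 changed sign. Cxcl9 and Cxcl11 were closest, with r = 0.95 and rho = 0.80 (adjusted permutation p = 0.00068 and 0.00884), and r = 0.84 without those libraries. Cxcl10 and Cxcl11 had r = 0.89 and rho = 0.72 (adjusted permutation p = 0.00109 and 0.0291), with r = 0.61 without them. Cxcl10 and Cxcl9 had r = 0.85 (adjusted permutation p = 0.00136) but rho = 0.61 (adjusted permutation p = 0.0737), with r = 0.56 without them. The chromosome 10 neighbours Ccl2 and Ccl7 had r = 0.73 (adjusted permutation p = 0.00466) but rho = 0.47 (adjusted permutation p = 0.2), and r = 0.32 without those libraries. Cxcl16 went with Ccl7 (r = 0.91, rho = 0.82, adjusted permutation p = 0.00068 and 0.00884, r = 0.69 without) and with Cxcl13 (r = 0.87, rho = 0.76, adjusted permutation p = 0.00068 and 0.0154, r = 0.65 without). Cxcl12, by contrast, ranged from 3.15 to 5.28 FPKM over the 18 libraries.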

How the data were processed

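The authors deposited a table of raw read counts per gene, whole numbers for 25678 genes in 18 libraries, and a table of FPKM, reads scaled to gene length and library size, for 25557 of them. Per the labels' protocols, messenger RNA was captured on beads and libraries were made with a stranded KAPA kit. The submitters' processing notes list HISAT2, DESeq2 and build mRatBN7.2. Neither the counter nor its strand setting is given, so overlapping genes, and near-identical copies such as those of Ccl21 and Ccl27 known in the mouse, are uncertain. Genes were filtered with filterByExpr (17043 left, and the genes removed held at most 0.0495% of a library's reads), scaled by TMM (0.946 to 1.04) and tested with edgeR 4.0.16 in R 4.3.3 (quasi-likelihood, robust, 18 libraries, 1 coefficient per group, 12 residual degrees of freedom). Adjustment was by Benjamini-Hochberg over all genes, and this code was tested on simulated data. CPM are counts scaled after TMM, and log2 CPM used a prior count of 2. No pair of replicates agreed within sampling noise. DESeq2 1.42.0, other filters, left-out libraries and a replicate block were alternatives. Correlations used 100000 permutations in scipy 1.17.1, adjusted within each family. RefSeq promoters (GRCr8) matched 28 of 34 ligands. The members, marker lists and comparisons were chosen with earlier results of these data known. By rule, ligands with a mean of at least 1 CPM are given in every library, and a fold change and test are given for a ligand with an unadjusted p under 0.05 or for the 2 smallest p of a comparison. Fold changes of Ccl2, Cxcl10 and Cxcl13 in the model and herb comparisons, and the values of the overlapping genes Art3, Il11ra1 and Zmynd15, were added after the values were seen.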

Additional observations from a re-analysis of the deposited data

How the results depend on the processing

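Counts of genes called by edgeR were 0 in each comparison, and DESeq2 called 1 (NPP_herb against NPP_solvent), 2 (NPP_herb against Sham_herb), 35 (Sham_solvent against Ctrl_solvent), 466 (Ctrl_solvent against Ctrl), 3 (the difference of herb effects) and 470 (any of the 6 groups). For Ctrl_solvent against Ctrl, edgeR called 1 without a filter and 2 with at least 10 reads in 3 libraries. With each library left out in turn the count ran from 0 to 734 for Ctrl_solvent against Ctrl, where 23 were called without Ctrl replicate 1 and 2 without Ctrl replicate 2. Ctrl replicate 1 is the only Ctrl library with many Y-linked reads (3006 for Eif2s3y). Without it the 2 groups also differ throughout in Y-linked reads, and the part of this in the 23 calls was not tested. The count ran from 0 to 252 for Sham_solvent against Ctrl_solvent and 0 to 319 for any of the 6 groups. It ran from 0 to 2 for NPP_herb against Sham_herb and 0 to 1 for the difference of herb effects, and stayed at 0 in the other 3. The highest counts for the first 3 came without Ctrl_solvent replicate 2. Without Ctrl_solvent replicates 1 and 3 together, 1 gene was called for any of the 6 groups. The lone Ctrl_solvent library is then assumed to vary like the other groups. In that setting the log2 fold changes that changed sign were, for Sham_solvent against Ctrl_solvent, 0.62 (Ccl7), 1.11 (Ccl11), 0.43 (Cxcl13), 0.54 (Cxcl16), 1.76 (Cxcl10), 0.15 (Cxcl1), 1.70 (Cxcl17), 1.25 (Ccl19), 0.36 (Cxcl14) and 0.68 (Ccl21). For Ctrl_solvent against Ctrl they were -0.028 (Cxcl16), -0.57 (Ccl11), -0.83 (Ccl7), -0.49 (Cxcl17), -0.35 (Ccl19), -0.54 (Ccl2), -0.29 (Cx3cl1) and -0.998 (Cxcl14). Correlations past the threshold fell to 1 of 136 pairs of ligands (65 with all libraries) and to 8 of 204 between lists and ligands (49), over fewer libraries. The cause of these changes was not tested.

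With the replicate number as a block, edgeR called 0 genes in each comparison, as without it. Of 18 same-number pairs, 4 deviated together with an r over 0.1, and 4 of 18 libraries correlated best with their own number. Herb and solvent libraries of the same number had r from 0.074 to 0.231 in NPP and from 0.054 to 0.177 in Sham. Same-number pairs of the other comparisons had r from -0.282 to 0.110. These values cannot decide whether the numbers pair the samples. Depth limits the scarce ligands, since 3 reads amount to 0.165 CPM in the shallowest library.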

Other observations

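Of 24 chemokine receptors and decoys, 17 had at least 36 reads and 14 were tested, and edgeR called 0 of them in each comparison. The decoy receptor Ackr1, which vessels carry, was the most abundant with a median of 56.2 FPKM, above any ligand's median, and stayed between 47.6 and 62.1 FPKM over the 18 libraries. Cxcr4 (9.24 FPKM), Ackr3 (3.77 FPKM), Ccr1 (0.965 FPKM) and Cx3cr1 (0.560 FPKM) followed. Ctrl_solvent replicates 1 and 3 lay above the other 16 libraries for Ccr2, Cxcr3, Cxcr6 and Ccrl2. Cxcr3, the receptor of Cxcl9, Cxcl10 and Cxcl11, was at 1.66 CPM or more in both, against at most 0.524 CPM in the others. The ligand Pf4, a platelet chemokine named outside the symbol rule, had a median of 5.85 FPKM with its highest value in Sham_solvent replicate 3.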
